A study of Mus musculus with 2 samples.

Results

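The genes examined encode the matrix metalloproteases (MMPs), the ADAMTS proteases, their ADAMTS-like relatives and the tissue inhibitors of metalloproteases (TIMPs) in mouse testis. They were taken by symbol from the deposited table, as every gene whose symbol opens with Mmp or Timp and a digit, or with Adamts. This gave 46 of the 18722 loci in the table: 19 MMP, 18 ADAMTS, 5 ADAMTS-like and 4 TIMP genes. All 46 are protein-coding. Testis RNA of male C57BL/6J mice aged 16 weeks was sequenced in 2 libraries. The shControl library came from testis that received a control short hairpin RNA, with the genotype given as WT, and the shDmrt1 library from testis that received a hairpin against Dmrt1, with the genotype given as Dmrt1 knockdown. Dmrt1 encodes a DNA-binding regulator made in Sertoli cells and early germ cells. Strain, sex and age were the same in both, and the labels used here state neither the delivery of the hairpins nor the number of testes or animals behind a library.

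MMPs and ADAMTS proteases are zinc enzymes that cut collagen, elastin, proteoglycans and other parts of the extracellular matrix, and most are made as inactive precursors that must be cleaved. TIMPs bind the active site of MMPs and so set how much protease is free to act. In the testis these enzymes and inhibitors are known for the turnover of the tubule wall and of the junctions between Sertoli cells, and elsewhere neutrophils and macrophages carry their own MMPs.

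The shControl library held 17846426 counts and the shDmrt1 library 24594371. Since each group is a single library, no replicate error or p-value can be given. Each value below compares 2 libraries, and the words higher and lower are used of libraries. A log2 ratio is shDmrt1 over shControl on counts scaled with TMM factors, and its 95% interval covers counting error only. Dmrt1 itself had 852 counts in shControl and 39 in shDmrt1, a log2 ratio of -4.45 (-4.97 to -4.01). Sertoli and germ cell markers were lower too, so less Dmrt1 RNA per cell and fewer such cells cannot be told apart. A gene counted as higher or lower if no part of its interval reached inside 2-fold, among genes with at least 1 CPM (counts scaled to the library total, without TMM) in 1 library. Germ cell markers were scarce in both testis libraries, at a sum of 177 CPM in shControl and 4.15 CPM in shDmrt1 over 10 genes.

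Of the 46 genes, 37 had at least 1 CPM in 1 library. Among these 37, 14 were higher in shDmrt1, against 17.8% of all 15104 genes tested, and 3 were lower, against 20.8% of all genes. The 14 make up 37.8% of the 37 and the 3 make up 8.11%. Part of the first count came through the filter, since 4 of the 14 (Mmp3, Mmp8, Mmp13 and Mmp27) reached 1 CPM in shDmrt1 alone. The other 10, and all 3 lower genes, reached it in both libraries. The 14 were 9 MMP genes, 2 ADAMTS and 3 ADAMTS-like genes, and the 3 were Timp2, Timp3 and Adamts9. Scaled by library totals instead, 12 were higher and 5 lower, so that higher genes were 70.6% of the calls in place of 82.4%. The same change of scaling lowered the median log2 ratio of all genes by 0.44, and took the higher share of their calls from 46.1% to 31.4%. The authors' deposited table, which compares these same single libraries, calls 9 of the 46 up, 1 down and 27 normal, and gives 9 no value. Timp2, Timp3, Adamts2, Adamts10, Adamtsl4, Adamtsl5 and Mmp19 passed the rule here and are normal there.

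**Figure D1:**
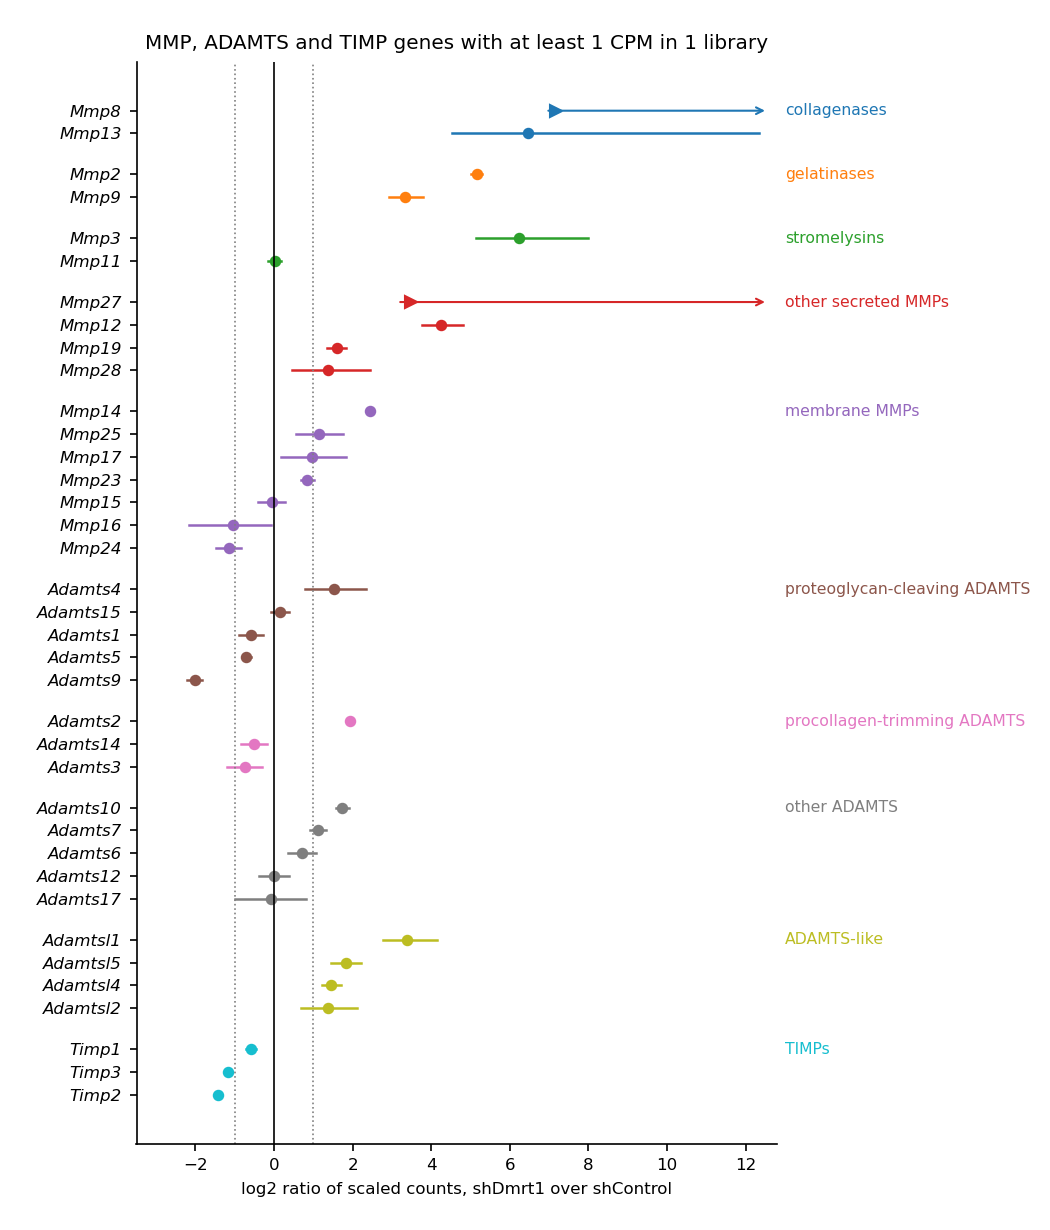
Log2 ratio of scaled counts, shDmrt1 over shControl, for the 37 genes with at least 1 CPM in 1 library, grouped by role; points are ratios, bars are 95% counting intervals, triangles with arrows are lower bounds for Mmp8 and Mmp27, which had 0 shControl counts, and dotted lines mark 2-fold. MMPs reach from -1.15 for Mmp24 to 6.46 for Mmp13 and beyond, while the 3 TIMPs shown lie between -1.44 and -0.59.

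Both gelatinases were higher in shDmrt1, at very different levels. Mmp2 (gelatinase A, ENSMUSG00000031740, chromosome 8, 92827291 to 92853420 on GRCm38), which cuts denatured collagen and basement membrane collagen, had 457 counts in shControl and 16530 in shDmrt1. That is 35.6-fold higher, with a log2 ratio of 5.15 (5.02 to 5.29). Per length, its deposited FPKM was 9.78 and 341, which moved it from place 8 to place 1 among the 46 genes. Mmp9, the gelatinase stored in neutrophil granules and also made by macrophages, had 48 and 494 counts and was 10.1-fold higher (log2 3.33, 2.91 to 3.80). Its FPKM stayed far below that of Mmp2, at 0.864 and 9.08.

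Both collagenases were near absent in shControl. Mmp8, the neutrophil collagenase, had 0 counts in shControl and 441 in shDmrt1, at least 145-fold higher when set against 3 counts in shControl. Mmp13, the main interstitial collagenase of rodents, had 1 and 133 counts, a log2 ratio of 6.46 whose interval of 4.53 to 12.35 is wide because of that single count. With a prior count of 5 the ratio of Mmp13 was 4.51, and from FPKM 4.30.

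Stromelysins, which cut proteoglycans, fibronectin and laminin and activate other MMPs, went different ways. Mmp3 had 5 and 419 counts, 75.3-fold higher (log2 6.23, 5.13 to 8.0). Mmp11, a stromelysin activated by furin inside the cell, had 561 and 574 counts (log2 0.01, -0.16 to 0.18), which became -0.43 with library totals. Mmp10 had 0 and 3 counts, too few to compare.

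Among the other secreted MMPs, Mmp12, the elastase of macrophages, had 33 and 643 counts and was 18.9-fold higher (log2 4.24, 3.76 to 4.82). Mmp19 had 194 and 595 counts, 3.02-fold higher, which was no longer past the rule with library totals. Mmp19 shares 22.3% of its exon bases with Tmem198b on the opposite strand, which had 190 and 487 counts, and since the strand setting of the counting is not given in the sources used here, reads in that shared stretch cannot be assigned to either gene. Mmp27, named after its values were seen, had 0 and 34 counts, at least 11.2-fold higher. It dropped out when a mean of at least 1 CPM was asked for. Mmp28 had 13 and 35 counts and Mmp7, a matrilysin of epithelia, 9 and 12, neither of them called.

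The membrane MMPs were led by Mmp14 (ENSMUSG00000000957, chromosome 14, 54431612 to 54445364), a collagenase anchored in the plasma membrane that, together with TIMP2, activates the precursor of MMP2. Mmp14 had 4168 and 22964 counts, 5.43-fold higher (log2 2.44, 2.39 to 2.49), with an FPKM of 59.7 and 304. It was the only 1 of the 7 membrane MMP genes past the rule. Mmp23 had 466 and 851 counts (log2 0.85, 0.68 to 1.01) and Mmp25, a lipid-anchored MMP of leukocytes, 36 and 81 (1.14, 0.57 to 1.76). Mmp24, known from the nervous system, went the other way with 268 and 122 counts (log2 -1.15, -1.48 to -0.84), and passed the rule with library totals. It shares 13.6% of its exon bases with BC029722 on the opposite strand, which had 1074 and 927 counts. Mmp15 had 137 and 133 counts. Both remaining members were scarce, Mmp16 with 27 and 13 counts and Mmp17 with 20 and 40.

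Of the 3 TIMP genes past the filter, 2 were lower in shDmrt1, beside 20.8% of all genes tested, and Timp1 was neither. The authors' calls have all 3 as normal. Timp2 (ENSMUSG00000017466, chromosome 11, 118301069 to 118355740), which both inhibits MMPs and takes part in MMP2 activation, had 22143 counts in shControl and 8288 in shDmrt1. The shDmrt1 level was 2.71-fold lower (log2 -1.44, -1.47 to -1.40). Timp3, the inhibitor that binds to the matrix and also blocks ADAMTS proteases, had 4678 and 2103 counts, 2.26-fold lower (log2 -1.17, -1.25 to -1.10). Timp1, an inhibitor that inflammatory signals induce in many tissues, had 1168 and 786 counts (log2 -0.59, -0.72 to -0.46), not past 2-fold. Timp4 had 1 and 11 counts, under 1 CPM in both libraries. Timp1 lies inside Syn1, Timp3 inside Syn3 and Timp4 inside Syn2, in each case on the opposite strand. Timp3 shares 21.3% of its exon bases with Syn3, which had only 9 and 3 counts.

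**Figure D2:**
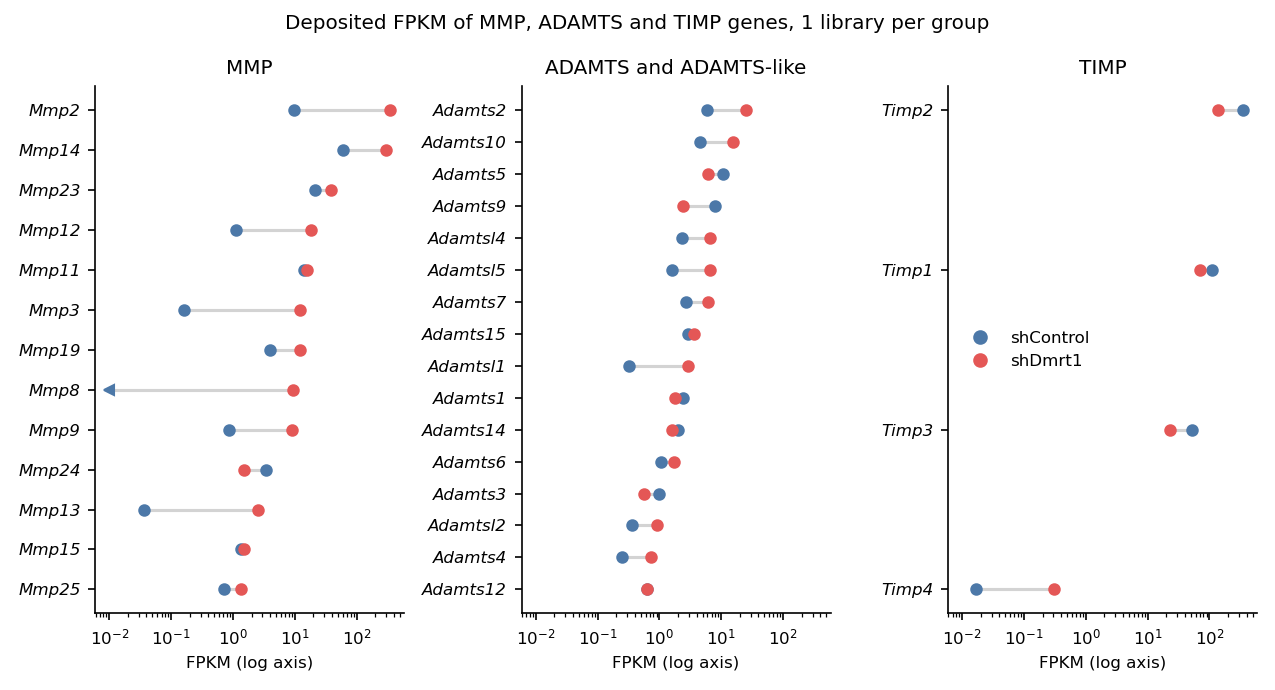
Deposited FPKM (log axis) of the 33 genes with at least 50 counts in 1 library or on the TIMP list, in the shControl and shDmrt1 libraries, 1 library each and without error bars; the triangle marks Mmp8, listed at 0 in shControl. Mmp2 and Mmp14 reach 341 and 304 in shDmrt1, above Timp2 at 139.

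Within each library, the summed FPKM of all MMP and all TIMP transcripts can be set side by side. In shControl the 19 MMPs summed to 117.9 and the 4 TIMPs to 507.2, an MMP to TIMP ratio of 0.232. In shDmrt1 they summed to 770.6 and 232.1, a ratio of 3.32. Few genes carried both sums. Mmp14 and Mmp2 made up 59.0% of the MMP sum in shControl and 83.7% in shDmrt1, and Timp2 made up 68.6% and 59.8% of the TIMP sum. Timp2 was thus 5.82 times the level of Mmp14 in shControl and 0.457 times that level in shDmrt1. Mmp2 went from 0.164 to 1.12 times the level of Mmp14. These are transcript levels from whole tissue: fewer cells of a type and less RNA per cell cannot be told apart, and protein and enzyme activity were not measured.

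**Figure D3:**
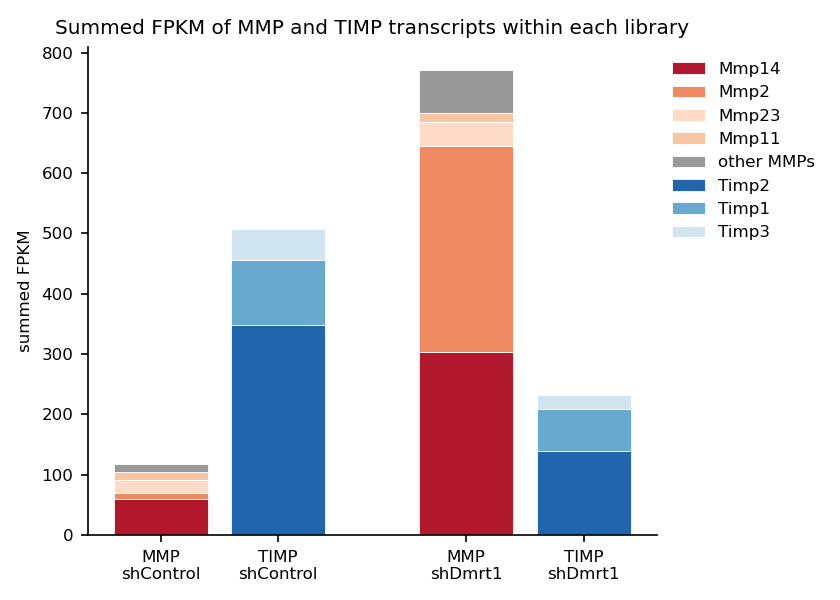
Summed deposited FPKM of MMP and of TIMP genes within the shControl and the shDmrt1 library, split by gene, 1 library each. The TIMP bar is the taller in shControl (507.2 against 117.9) and the MMP bar in shDmrt1 (770.6 against 232.1).

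Of the 19 MMP genes, 7 form a group on chromosome 9 between 7272514 and 7699585, a span of 427.1 kb, in the order Mmp13, Mmp12, Mmp3, Mmp10, Mmp8, Mmp27 and Mmp7. Together they had 48 counts in shControl and 1685 in shDmrt1. All 5 of them that reached 1 CPM were higher, beside 17.8% of all genes tested, while Mmp10 and Mmp7 were too scarce. Of these 5, 4 reached 1 CPM in shDmrt1 alone, so that a higher value was a condition of their entry. Only Mmp12 reached it in both libraries. The 5 of 5 therefore cannot be weighed against the MMP genes elsewhere in the genome, of which 4 of 12 were higher and 8 neither. Adamts1 and Adamts5, next to each other on chromosome 16, had log2 ratios of -0.58 and -0.70, neither of them called.

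**Figure D4:**
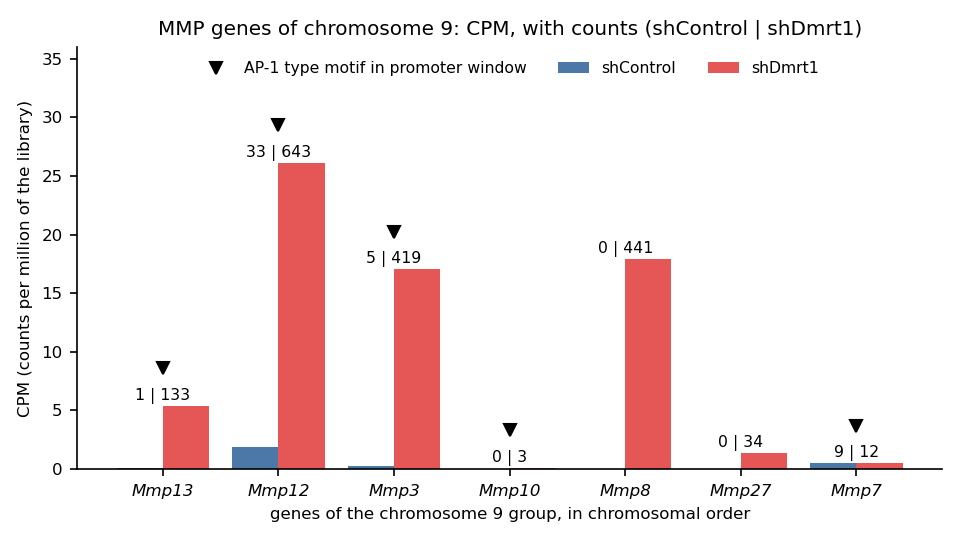
CPM of the 7 MMP genes of the chromosome 9 group in chromosomal order, in the shControl and shDmrt1 libraries, with the counts of both above each pair of bars; black triangles mark genes with an AP-1 type motif in their promoter window. The shDmrt1 bars of Mmp12, Mmp8 and Mmp3 are the tallest, from 419 to 643 counts, whereas Mmp10 and Mmp7 are close to 0.

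Promoter windows from RefSeq on GRCm38.p6, from 250 bases before to 50 after a start site, were at hand for 31 of the 46 genes, some with more than 1 start, 34 windows in all. MMP promoters are a textbook target of AP-1, the Fos and Jun factor, so the letters TGANTCA were searched, a motif that reads the same on both strands. It was present in 7.81% of all 32851 windows of the table. Among the windows of these genes it stood in 5 of 34, and all 5 belong to the chromosome 9 group: Mmp13, Mmp12, Mmp3, Mmp10 and Mmp7. The motif opened 35 bases before the start site in Mmp13, 44 in Mmp12, 46 in Mmp3 and 63 in both Mmp10 and Mmp7. Mmp10 and Mmp7, with 3 and 12 shDmrt1 counts, held the motif and were scarce, whereas Mmp8 and Mmp27 were higher and had no match in the window. None of the 25 windows outside the group held it. Of the 4 higher MMP genes outside the group only Mmp14 had a window, and Mmp2, Mmp9 and Mmp19 were not searched. The windows of the group were also poorer in G and C, with a median of 40.0% against 66.0% for the other members and 52.7% for all windows. An NF-kB type motif, GGG, any 5 bases and CC on either strand, was in 50.8% of all windows, in 24 of 34 windows of these genes and in 2 of the 9 windows of the group. The upstream 250 bases are shown for 3 higher genes of the group with the AP-1 type motif, in capitals, for Mmp8 as a higher neighbour without it, and for Mmp14 and Timp2 as the MMP and the TIMP with most counts. The windows are chr9:7272264-7272513 for Mmp13, chr9:7347124-7347373 for Mmp12 (the second of its start sites), chr9:7445572-7445821 for Mmp3, chr9:7558179-7558428 for Mmp8 and chr14:54431348-54431597 for Mmp14, all on the plus strand, and chr11:118355412-118355661 on the minus strand for Timp2.
Mmp13: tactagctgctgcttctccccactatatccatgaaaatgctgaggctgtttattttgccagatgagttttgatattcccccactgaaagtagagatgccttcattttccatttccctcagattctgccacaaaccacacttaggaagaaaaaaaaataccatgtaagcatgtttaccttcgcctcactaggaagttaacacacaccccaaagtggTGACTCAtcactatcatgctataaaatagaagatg
Mmp12: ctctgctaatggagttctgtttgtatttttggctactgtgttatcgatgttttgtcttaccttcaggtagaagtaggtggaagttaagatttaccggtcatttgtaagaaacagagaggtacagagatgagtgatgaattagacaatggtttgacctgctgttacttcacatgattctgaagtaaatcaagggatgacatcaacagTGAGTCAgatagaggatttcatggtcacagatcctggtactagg
Mmp3: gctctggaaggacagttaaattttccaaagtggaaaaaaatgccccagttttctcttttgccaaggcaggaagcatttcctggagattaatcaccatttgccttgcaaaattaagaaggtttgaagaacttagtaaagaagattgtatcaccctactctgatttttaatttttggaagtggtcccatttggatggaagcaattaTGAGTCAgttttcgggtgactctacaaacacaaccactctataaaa
Mmp8: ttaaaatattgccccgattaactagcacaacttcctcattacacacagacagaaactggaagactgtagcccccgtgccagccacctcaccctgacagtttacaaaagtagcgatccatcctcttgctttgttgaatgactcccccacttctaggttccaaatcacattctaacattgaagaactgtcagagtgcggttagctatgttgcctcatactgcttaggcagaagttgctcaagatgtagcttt
Mmp14: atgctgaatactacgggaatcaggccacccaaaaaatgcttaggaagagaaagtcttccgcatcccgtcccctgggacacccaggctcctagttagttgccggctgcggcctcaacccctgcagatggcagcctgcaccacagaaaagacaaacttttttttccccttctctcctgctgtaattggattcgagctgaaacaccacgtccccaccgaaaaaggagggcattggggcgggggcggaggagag
Timp2: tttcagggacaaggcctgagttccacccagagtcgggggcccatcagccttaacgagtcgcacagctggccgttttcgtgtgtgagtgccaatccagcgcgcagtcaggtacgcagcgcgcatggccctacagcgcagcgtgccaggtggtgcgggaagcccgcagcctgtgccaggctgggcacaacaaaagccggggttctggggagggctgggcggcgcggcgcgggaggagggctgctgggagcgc
A match is a run of letters and not a measured binding site.

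ADAMTS genes were mixed. Over the 13 ADAMTS genes past the filter the median log2 ratio was 0.00, against -0.02 for all genes tested, with 2 higher, 1 lower and 10 neither. Calls in either direction made up 23.1% of the 13, beside 38.6% of all genes tested. For the 17 MMP genes the median was 1.59, but 5 of them passed the filter in shDmrt1 alone and 1 in shControl alone. Over the 11 MMP genes with at least 1 CPM in both libraries, a filter chosen after the values were seen, the median was 1.14. For all 12734 genes so filtered it was 0.10. Of the 11, 5 were higher and 0 lower, beside 2233 higher and 1729 lower of the 12734. The median was 1.63 for the 4 ADAMTS-like genes and -1.17 for the 3 TIMP genes, all of which passed in both libraries.

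Of the 5 ADAMTS genes past the filter whose proteases cut aggrecan, versican and similar proteoglycans, 1 was lower and 4 were neither. Adamts9 (ENSMUSG00000030022, chromosome 6, 92772699 to 92943492), which cuts versican, had 1158 counts in shControl and 289 in shDmrt1. It was 4.06-fold lower (log2 -2.02, -2.21 to -1.84) and is the 1 gene of the 46 that the authors' deposited table calls down. Adamts9 shares 9.18% of its exon bases with A730049H05Rik on the opposite strand, which had 73 and 11 counts. Adamts5, the main aggrecanase of mouse cartilage, had 1661 and 1036 counts (log2 -0.70, -0.81 to -0.59), which passed the rule with library totals. Adamts1 had 235 and 159 counts (-0.58, -0.88 to -0.29). Adamts15 had 310 and 351 counts (0.16, -0.07 to 0.38) and changed sign with library totals, to -0.28. Adamts4, an aggrecanase induced in inflamed joints, had 20 and 59 counts (1.52, 0.79 to 2.35) and was not called.

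Proteases that trim procollagen at its amino end differed from each other. Adamts2, the chief enzyme of this step for collagen I and III, had 898 and 3460 counts, 3.80-fold higher (log2 1.93, 1.82 to 2.03). Adamts14 had 188 and 133 counts (-0.52, -0.85 to -0.19) and Adamts3 115 and 70 (-0.73, -1.19 to -0.30), both with ratios below 0 and not past 2-fold.

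Of the remaining ADAMTS genes, Adamts10, which binds fibrillin microfibrils, was higher with 376 and 1277 counts (log2 1.74, 1.58 to 1.91). Its relative Adamts6 had 114 and 189 counts (0.71, 0.37 to 1.06). Neither Adamts7 nor Adamts12, whose proteases cut cartilage oligomeric matrix protein, was called. Adamts7 had 291 and 642 counts and was 2.17-fold higher by its point estimate, with an interval that reached inside 2-fold (log2 1.12, 0.92 to 1.33). Adamts12 had 117 and 119 counts (0.00, -0.38 to 0.38), or -0.44 with library totals.

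ADAMTS-like genes encode proteins without a protease domain, several of which bind fibrillin microfibrils. Adamtsl1 had 21 and 228 counts, 10.5-fold higher (log2 3.39, 2.77 to 4.14). Adamtsl5 had 79 and 284 counts, 3.53-fold higher (1.82, 1.46 to 2.20). Adamtsl4, known for the fibres that hold the lens, had 187 and 519 counts, 2.73-fold higher (1.45, 1.21 to 1.70), and was not past the rule with library totals. Adamtsl2 had 25 and 66 counts (1.36, 0.70 to 2.11) and was not called.

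In all, 13 of the 46 genes had fewer than 50 counts in both libraries and were not TIMPs, with 0 to 27 counts in shControl and 3 to 40 in shDmrt1. Besides Mmp7, Mmp10, Mmp16, Mmp17, Mmp27 and Mmp28 above, these were Adamts8, Adamts13, Adamts16, Adamts17, Adamts19, Adamts20 and Adamtsl3. Adamts17 and Adamtsl3 gave different pictures by counts and by FPKM. Adamts17 had 23 and 22 counts but an FPKM of 0.174 and 0.460, and Adamtsl3 had 15 and 7 counts but an FPKM of 0.141 and 0.618.

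Other genes of matrix breakdown were described by lists. Of 16 convertases, plasminogen system genes and serine proteases that activate MMPs, 14 passed the filter, with 8 higher and 3 lower. Of all genes, 17.8% were higher and 20.8% lower. Again 5 of the 8 had 0 shControl counts and entered through shDmrt1 alone, and 1 of the 3 entered through shControl alone, so that their direction was a condition of entry. Elane and Ctsg, elastase and cathepsin G of neutrophil granules, had 0 shControl counts and were at least 98.9-fold and 54.2-fold higher. Serpinf2, the inhibitor of plasmin, was at least 81.1-fold lower, from 240 counts to 0. Chosen after their values were seen, Furin, which activates the membrane MMPs, had 3445 and 3357 counts, while the plasminogen activator genes went opposite ways, Plau 3.64-fold higher with 418 and 1546 counts and Plat 2.66-fold lower with 1829 and 697.

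Of 8 further inhibitors, clearance receptors and surface regulators past the filter, 1 was higher, 2 lower and 5 neither. Calls in either direction made up 37.5% of the 8, near the 38.6% of all genes tested. The lower ones were Reck, a membrane-anchored MMP inhibitor, with 674 and 134 counts, 5.09-fold lower (log2 -2.35, -2.63 to -2.08), and Papln, which encodes papilin, with 220 and 53 counts. Thbs2, whose protein binds MMP2 for uptake, was 19.6-fold higher with 67 and 1340 counts. Neither of the 2 procollagen processing partners past the filter, Bmp1 and Tll1, was called.

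Of 22 genes for substrates past the filter, 11 were higher, 4 lower and 7 neither, so that 68.2% were called, beside 38.6% of all genes. The median log2 ratio was 1.07, beside -0.02 for all genes. The higher ones all passed in both libraries, and 1 of the 4 lower ones, Acan, passed in shControl alone. Col1a1 was 19.7-fold higher, Col3a1 17.9-fold and Fn1 16.1-fold. The 4 lower substrates, named after their values were seen, were the proteoglycan gene Acan, the laminin genes Lama1 and Lama2 and the fibrillin gene Fbn2, from 24.3-fold to 4.12-fold lower. Cytokine and growth factor genes known to induce MMPs were 5 higher and 1 lower of 7, or 85.7% called, beside 38.6% of all genes. Il1b was 62.4-fold, Tnf 46.3-fold and Il1a 6.96-fold higher. Of the 5, Osm, with 15 and 124 counts, reached 1 CPM in shDmrt1 alone. The lower gene was Egf, with 167 and 28 counts, and both were named after their values were seen.

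Cell type markers also differed between the libraries, in different directions. For all genes tested the shares were 17.8% higher and 20.8% lower. Over 7 fibroblast markers, 6 were higher and the sum went from 1040 CPM to 6260 CPM. Pdgfra, named after its values were seen, was not called and had 3501 and 2115 counts (log2 -0.75, -0.83 to -0.67). Of the shDmrt1 sum, Col3a1 held 3770 CPM and Col1a1 1526 CPM. Both, and Dcn, are also on the substrate list, so the 2 lists are not separate. Of 11 macrophage and monocyte markers, 8 were higher and 2 lower, with sums of 1112 and 4838 CPM, all detected in both libraries. The 2 lower ones, named after their values were seen, were Cd163, with 202 and 9 counts, and Mrc1, with 3945 and 1311. Cd163 reached 1 CPM in shControl alone. Of 12 neutrophil markers, 11 were higher, of which 9 were under 1 CPM in shControl and entered through shDmrt1 alone, 3 of them with 0 shControl counts. The other marker, Lcn2, was 37.15-fold lower, with 90859 and 2480 counts. The sum over all 12 was 5103 CPM in shControl, of which Lcn2 held 5091 CPM, and 1085 CPM in shDmrt1. Without Lcn2, left out after the values were seen, the sum was 11.7 and 984 CPM. Markers of T and NK cells were higher in 7 of 7 cases, and summed to 55.0 and 382 CPM. Of the 6 endothelial markers 3 were higher, with sums of 89.2 and 226 CPM. All 7 Leydig markers were lower, with sums of 23376 and 240 CPM, and 1 of them entered through shControl alone. All 9 Sertoli markers were lower too, with sums of 6623 and 569 CPM, and 2 of them entered through shControl alone. So were all 10 germ cell markers, of which 9 entered through shControl alone. Among 6 peritubular myoid and smooth muscle markers 1 was higher and 1 lower, with sums of 549 and 279 CPM. The part that these cell types have in the MMP, ADAMTS and TIMP values was not tested.

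**Figure D5:**
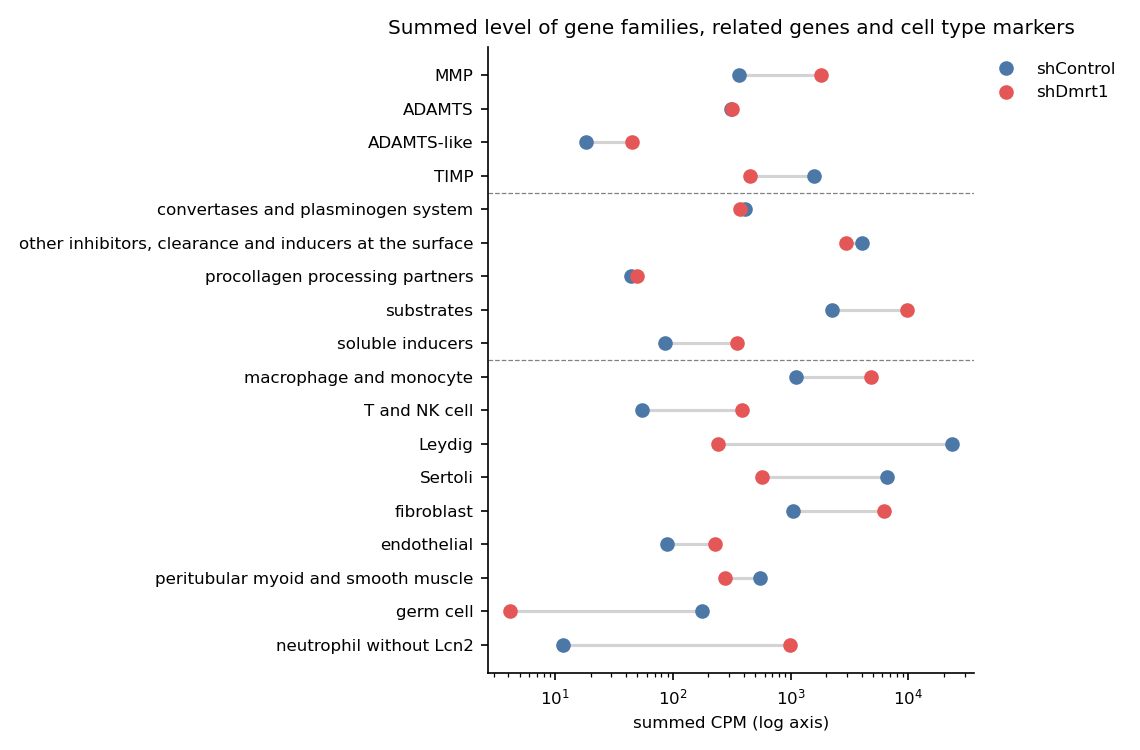
Summed CPM (log axis) of the 4 gene families, of 5 lists of related genes and of 9 cell type marker lists. Values are from the shControl and shDmrt1 libraries, 1 library each. The neutrophil list is drawn without Lcn2, which was lower, from 5091 CPM in shControl to 101 CPM in shDmrt1. MMP transcripts went from 361 to 1794 CPM and TIMP transcripts from 1568 to 455 CPM, while Leydig markers went from 23376 to 240 CPM and fibroblast markers from 1040 to 6260 CPM.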

How the data were processed

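RNA of 2 testis libraries was analysed from 1 deposited table. Per the labels' protocols, TRIzol was used for the RNA and the mRNA kit keeps strand. Per the file headers, the authors gave a read count and an FPKM value for each locus and ran EBSeq with FDR 0.01 and fold 2. Tools listed in the submitters' processing notes are edgeR 3.12.1, DESeq, STAR 2.5.3a, Trimmomatic 0.36, featureCounts and Subread 1.5.1, with mm10 as the build. Annotation and strand setting: not given in the sources used here. Every value column belonged to 1 of the samples or to that comparison.

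Counts were scaled with TMM factors (edgeR 4.0.16, R 4.3.3) of 1.17 and 0.858. Log2 ratios used a prior count of 0.5, and intervals are 95% Clopper-Pearson intervals of the shDmrt1 share of both counts. No molecular identifiers are recorded, so the counts are of reads and not of molecules. Intervals and floors cover the counting error of reads only. A gene at 0 was set against 3 counts per library, 0.168 CPM in shControl and 0.122 CPM in shDmrt1. FPKM served for levels between genes and as an alternative with a pseudocount of 0.1. Gene positions were read from GENCODE M21 (GRCm38, known as mm10). The ratio and its interval were tested on simulated counts that held counting error only and were scaled by library totals. The TMM scaling and any spread between replicates were not tested. Genes and lists were chosen with earlier results of these data known. Named were all genes with at least 50 counts in 1 library, every TIMP, and up to 3 genes of each related list. Motifs in proteins, planned at first, were not analysed here. Alternatives were library totals, DESeq2 1.42.0 size factors, FPKM, a prior count of 5, other filters and other call rules.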

Additional observations from a re-analysis of the deposited data

How the results depend on the processing

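No paired analysis was possible because shControl and shDmrt1 are single libraries, so leaving one out was not possible either. DESeq2 size factors kept all 17 calls among these genes. Library totals kept 15, losing Adamtsl4 and Mmp19 and adding Adamts5 and Mmp24 as lower, and so gave 5 lower genes. FPKM and a point estimate beyond 2-fold each gave 5 lower too, and a 1.5-fold rule with an interval that excludes 1 gave 22 higher and 8 lower, against 4484 and 4902 among all genes. At least 1 CPM in both libraries, chosen after the values were seen, gave 10 higher and 3 lower of 30 genes, and an MMP median of 1.14. Of all 12734 genes so filtered, 2233 were higher and 1729 lower, against 2685 and 3142 of 15104 with the main filter. Mmp27 was lost with a mean of at least 1 CPM and with 5 CPM in 1 library. The MMP median of 1.59 became 2.89 at 5 CPM and 2.79 as a mean. The TIMP median of -1.17 became -1.62 with library totals, -0.88 with no filter (which adds Timp4) and -1.07 as a mean, and the ADAMTS median of 0.00 became -0.44 with library totals. The log2 change of summed CPM, TMM-scaled CPM and summed FPKM was 2.31, 2.76 and 2.71 for MMPs, 0.04, 0.48 and 0.65 for ADAMTS, 1.29, 1.74 and 1.89 for ADAMTS-like genes and -1.79, -1.34 and -1.13 for TIMPs. No called gene changed sign under library totals, DESeq2 size factors, FPKM or a prior count of 5. Among the uncalled genes that were TIMPs or had at least 50 counts in 1 library, Adamts12, Adamts15 and Mmp11 changed sign with library totals. Mmp15 did so with FPKM, to 0.12. Among the scarcer genes, FPKM took Adamts17 from -0.08 to 1.03 and Adamtsl3 from -1.07 to 1.58. Ratios of genes with at most 5 shControl counts, such as Mmp3, Mmp8, Mmp13 and Mmp27, are the least certain in size.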
